A study of Mus musculus with 15 samples.

Results

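The genes described here encode the subunits of the receptors for glutamate, GABA and glycine, the fast transmitters of the brain. They were taken from the expression table by gene symbol alone, with no use of their levels, and there were 52 of them among 24264 genes. By family they were 4 AMPA receptor genes (Gria), 5 kainate receptor genes (Grik), 7 NMDA receptor genes (Grin), 2 delta receptor genes (Grid), 8 metabotropic glutamate receptor genes (Grm), 19 GABA-A receptor genes (Gabra, Gabrb, Gabrg, Gabrd, Gabre, Gabrp, Gabrq and Gabrr), 2 GABA-B receptor genes (Gabbr) and 5 glycine receptor genes (Glra and Glrb).

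AMPA, kainate and NMDA receptors are cation channels that glutamate opens, and the related delta receptors work mainly as synaptic adhesion partners of secreted cerebellins. Metabotropic glutamate receptors and GABA-B receptors signal through G proteins, while GABA-A and glycine receptors are chloride channels assembled from different subunits, whose choice sets how long the channel opens, where it sits and which drugs bind it. In the embryonic brain many of these subunits are made before most synapses exist, and GABA and glycine often depolarise young neurons, which keep a high internal chloride.

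Tissue was dissected under a microscope from the brains of mouse embryos at day E12.5 of development. All were of the strain C57bl/6 and carried green fluorescent protein (GFP) driven by the promoter of Th, the gene of tyrosine hydroxylase, so the reporter was common to all groups and no genotype or treatment separated them. The 5 groups were the ventral midbrain, the dorsal midbrain, the alar plate, the forebrain and the hindbrain, with 3 libraries each, each library made from 200 ng of RNA. Where along the brain the alar plate was cut is not stated in the labels, nor whether each sample was a separate embryo. A p-value here therefore reflects only how far these samples spread, and that spread may be technical. Levels are RPKM, reads scaled to the length of the gene and the size of the library, and are therefore per length, so that levels of different genes can be set side by side. The steps between low RPKM values gave back whole reads, and by these the libraries held 7744033 to 11702736 reads, so that 3 reads of a receptor gene corresponded to a median of 0.0567 to 0.0857 RPKM, depending on the library.

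Some libraries stood apart from their own region. Dorsal midbrain 3 and forebrain 1 were closest to each other (Pearson r of 0.99 across genes) and alar plate 3 to dorsal midbrain 2 (r of 0.969), whereas the other 12 libraries were each closest to a library of their own region. Alar plate 3 had an RPKM total of 489420, whereas the other 14 libraries lay between 374280 and 390992. Relative to alar plate 1 and 2, its genes had a median log2 difference of 0.55 among the shortest 25% of genes and of -0.55 among the longest 25%, and none of the 36 receptor genes tested below was among the shortest and 13 were among the longest. Over the other length classes, from shorter to longer, receptor genes (5, 18 and 13) had medians of -0.49, -0.45 and -1.03. All genes of these classes had 0.17, -0.14 and -0.55. The part of gene length was not tested. Counts of receptor genes are given below with and without dorsal midbrain 3, alar plate 3 and forebrain 1, an alternative chosen after seeing the data. Shares of all genes tested are given for all 15 libraries only, and for calls only at an adjusted p under 0.05. Counts with libraries left out, or at an unadjusted p, therefore have no background beside them. Six3, a gene of the anterior brain, stood at 23.3, 13.6 and 11.3 RPKM in the alar plate, against 7.62, 19.9 and 15.5 in the forebrain, 5.5 in dorsal midbrain 3 and at most 0.737 in the other 8 libraries, so the alar plate libraries carried it at forebrain levels. Dlx2 stood at 13.5 RPKM in alar plate 3 and 11.3 in forebrain 1 and at most 1.7 in the other 13 libraries, and Gbx2 at 73.0 in alar plate 3, 111 in forebrain 1, 14.1 in dorsal midbrain 3 and at most 8.89 in the other 12. Whether libraries were exchanged or tissues mixed was not tested, and the labels are used as given. Th stood at 77.5, 81.7 and 68.9 RPKM in the ventral midbrain and at most 6.39 elsewhere. Hoxa2, a hindbrain gene, stood at 0.107, 11.1 and 6.24 RPKM in hindbrain 1, 2 and 3.

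Promoters of 5 receptor genes are shown because their genes carry the regional differences described below: Gabra5 (higher in ventral midbrain), Grm3 (lower in ventral midbrain), Glra2 (lower in dorsal midbrain), and Gria4 and Grik3 (higher in hindbrain). Each runs 5′ to 3′ from 250 bases before to 50 bases after the annotated start in RefSeq, on build GRCm38.p6. The windows are chr7:57510010-57510309 on the minus strand for Gabra5, chr5:9725303-9725602 on the minus strand for Grm3, chrX:165327344-165327643 on the minus strand for Glra2, chr9:4796185-4796484 on the minus strand for Gria4 and chr4:125490446-125490745 on the plus strand for Grik3. Capitals mark matches on either strand to the GC box GGGCGG, the TATA box TATAAA, the homeodomain core TAATTA, the forkhead motif TGTTTAC, the MEIS motif TGACAG and the E-box CAGCTG.
Gabra5: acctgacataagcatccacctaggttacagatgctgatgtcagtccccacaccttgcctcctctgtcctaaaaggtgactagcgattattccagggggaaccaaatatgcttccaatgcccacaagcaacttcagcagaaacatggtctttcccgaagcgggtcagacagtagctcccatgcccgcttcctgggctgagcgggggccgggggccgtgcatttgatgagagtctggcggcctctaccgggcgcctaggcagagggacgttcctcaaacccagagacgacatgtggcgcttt
Grm3: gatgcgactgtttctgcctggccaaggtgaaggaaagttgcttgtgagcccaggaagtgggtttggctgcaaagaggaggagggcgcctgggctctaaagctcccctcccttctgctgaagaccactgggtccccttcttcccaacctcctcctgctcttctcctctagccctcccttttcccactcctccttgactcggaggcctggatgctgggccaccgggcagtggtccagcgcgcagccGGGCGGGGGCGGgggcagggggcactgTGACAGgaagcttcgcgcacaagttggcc
Glra2: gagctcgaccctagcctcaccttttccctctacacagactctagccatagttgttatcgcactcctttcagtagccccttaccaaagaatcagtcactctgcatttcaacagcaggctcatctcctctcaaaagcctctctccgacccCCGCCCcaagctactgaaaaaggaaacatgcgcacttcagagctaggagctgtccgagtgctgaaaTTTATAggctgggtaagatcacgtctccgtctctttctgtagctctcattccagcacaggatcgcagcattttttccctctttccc
Gria4: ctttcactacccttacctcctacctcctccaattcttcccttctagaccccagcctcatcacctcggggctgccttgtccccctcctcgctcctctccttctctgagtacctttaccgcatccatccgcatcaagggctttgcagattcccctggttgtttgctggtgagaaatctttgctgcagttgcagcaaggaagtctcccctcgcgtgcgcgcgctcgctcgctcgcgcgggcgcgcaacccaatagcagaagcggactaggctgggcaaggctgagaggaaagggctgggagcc
Grik3: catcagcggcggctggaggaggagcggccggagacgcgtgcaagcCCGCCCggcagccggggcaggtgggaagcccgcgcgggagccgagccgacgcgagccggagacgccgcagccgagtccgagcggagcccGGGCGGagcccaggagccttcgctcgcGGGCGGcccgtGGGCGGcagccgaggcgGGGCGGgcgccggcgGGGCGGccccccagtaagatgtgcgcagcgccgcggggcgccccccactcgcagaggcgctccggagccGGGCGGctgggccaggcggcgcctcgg

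The Grik3 window was the richest in GC boxes of the 5, with 7 matches and a GC content of 82.0%. Grm3 had 2 GC boxes and 1 MEIS match, Glra2 had 1 GC box and 1 TATA match, and the windows of Gabra5 and Gria4 held none of the 6 motifs. A table of 43 windows covered 36 of the 52 receptor genes, and 51.2% of these windows held a GC box, against 35.7% of all 32851 windows of the same length. The E-box was found in 4.65% of receptor gene windows and 16.3% of all windows, the MEIS motif in 18.6% and 19.2%, the TATA box in 11.6% and 13.6%, and the homeodomain core and forkhead motif in 2.33% each, against 5.29% and 3.65% of all windows. The median GC content was 59.0% over receptor gene windows and 52.7% over all windows. A match describes the letters of the window only.

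Most receptor genes were already transcribed at this stage, but the families differed in how many of their members were. Tests were made on genes that reached 1 RPKM in 3 or more libraries, which 36 of the 52 receptor genes did (69.2%), against 56.6% of all genes. All AMPA, kainate, delta and GABA-B genes passed, as did 5 of 7 NMDA genes, 7 of 8 metabotropic glutamate genes, 9 of 19 GABA-A genes and 2 of 5 glycine receptor genes. Gabbr1, a subunit of the GABA-B receptor, had the highest mean over the 15 libraries, at 81.1 RPKM, followed by the kainate subunit gene Grik5 at 47.9 RPKM. The 16 genes that did not pass were Gabra4, Gabra6, Gabrd, Gabre, Gabrg1, Gabrg3, Gabrp, Gabrr1, Gabrr2, Gabrr3, Glra1, Glra3, Glra4, Grin2a, Grin2c and Grm6. Their highest value in any library was 2.15 RPKM, 12 of them stayed below 1 RPKM in every library, and Gabra6, known from cerebellar granule cells, was listed at 0 in all 15.

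**Figure D1:**
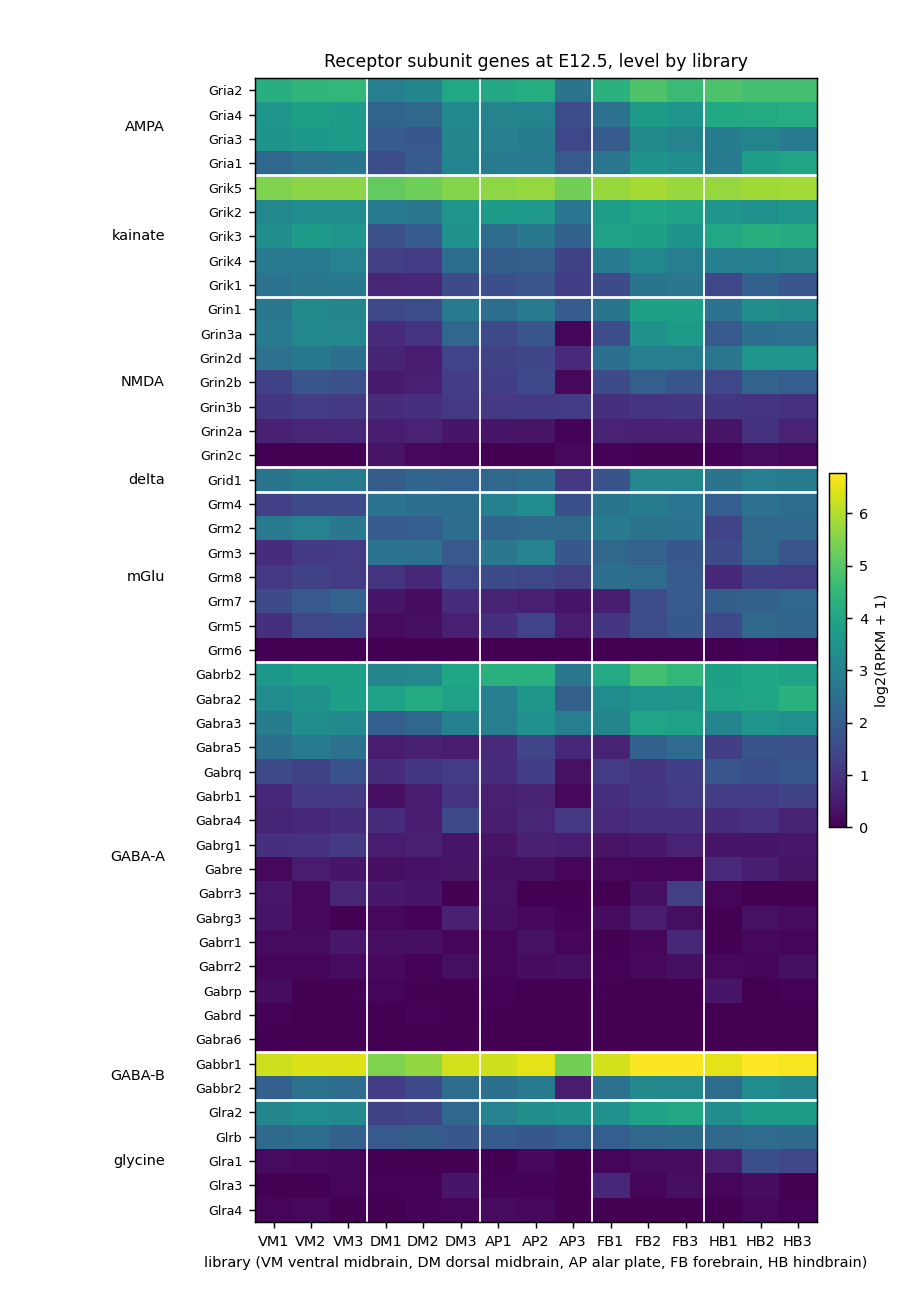
Level of 47 receptor genes (rows, grouped by family) in each of the 15 libraries (columns) as log2(RPKM + 1). Gabbr1 and Grik5 form the brightest rows, and the 16 genes that failed the filter are the darkest of their families.

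Most tested receptor genes differed between regions. In a moderated F test across the 5 regions (limma on log2(RPKM + 1), adjusted over all 13745 genes tested), 28 of 36 receptor genes were called at an adjusted p under 0.05, against 33.7% of all genes tested. The range of the 5 region means had a median of 1.26 on the log2(RPKM + 1) scale over the receptor genes and 0.48 over all genes. All 7 tested metabotropic glutamate genes were called, as were 8 of 9 GABA-A genes, 4 of 5 kainate genes, 4 of 5 NMDA genes, 2 of 4 AMPA genes and both glycine receptor genes. No GABA-B gene was called by limma (Gabbr1 adjusted p = 0.0795; Gabbr2 adjusted p = 0.155). At an unadjusted p under 0.05, 31 of the 36 receptor genes differed, with no share of all genes at that threshold beside them. These further counts are of receptor genes at the adjusted threshold. The count was 14 without dorsal midbrain 1 or 2, 18 without ventral midbrain 2, and 17 without hindbrain 2 or 3.

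Receptor genes were low in the dorsal midbrain, where the mean summed RPKM was the lowest of the 5 regions in 7 of the 8 families, all but the delta receptors. Against the mean of the other 4 regions, 19 of 36 receptor genes were lower there, while 13.8% of all genes tested were lower (32% differed in either direction). None was higher by limma at this threshold, against 18.2% of all genes, and 1 was higher at an unadjusted p under 0.05. The median difference of the receptor genes was -0.73 on the log2(RPKM + 1) scale, against 0.05 for all genes. The lower genes came from every family but the delta receptors, among them the AMPA genes Gria2 and Gria4, the kainate genes Grik1, Grik3, Grik4 and Grik5, the NMDA genes Grin1, Grin2b and Grin2d, the metabotropic genes Grm5 and Grm7, the GABA-A genes Gabra3 and Gabra5, and Gabbr1, Glra2 and Glrb. Summed over the family, AMPA receptor genes had 14.9, 16.9 and 38.3 RPKM in dorsal midbrain 1, 2 and 3, against 32.2 to 63.4 in the ventral midbrain, forebrain and hindbrain libraries and 35.6, 37.1 and 11.8 in alar plate 1, 2 and 3. Dorsal midbrain 1 and 2 thus lay below every library but alar plate 3, and dorsal midbrain 3 lay inside the range of the other regions. The count was 3 without dorsal midbrain 1, 4 without dorsal midbrain 2, 30 without alar plate 3, and 31 (1 higher and 30 lower) without dorsal midbrain 3, alar plate 3 and forebrain 1. Of the 19 calls, those of Glra2, Grin2d and Grm5 held whichever single library was left out.

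Markers of other cell classes moved with this result. The 12 neuronal marker genes summed to 2173, 2397 and 2856 RPKM in dorsal midbrain 1, 2 and 3. In the other 12 libraries they summed to 2668 to 3564, so that dorsal midbrain 1 and 2 lay below them all. By gene, these 2 libraries were below the other 12 for Stmn2, Snap25, Elavl4 and Gap43 only. For Dcx, Mtap2, Syt1 and Ina, alar plate 3 was lower still. Tubb3, the largest term of the sum, was within the range of the other libraries (1026, 1155 and 1194 RPKM, against 876 to 1581). So were Elavl3, Nefl and Nefm. The 8 genes of meninges and mesenchyme summed to 121, 128 and 67.7 RPKM in the dorsal midbrain, against 165, 8.97 and 48.3 in the alar plate and 4.06 to 16.1 elsewhere. Neural progenitor genes summed to 1361 to 1535 RPKM in the dorsal midbrain, inside the range of the other libraries (873 to 1858), a sum carried mostly by Vim and Fabp7. Genes of dividing cells on that list, picked after their values were seen, were high in the dorsal midbrain. Mki67 stood at 75.8, 63.2 and 33.6 RPKM there, against at most 32.5 in any other library. Top2a stood at 145, 125 and 62.8 RPKM, against at most 63.6, and Ccnb1 at 64.3, 57.5 and 27.9 RPKM, against at most 44.8. Hes5, a Notch target of progenitors, stood at 148, 151 and 68.9 RPKM, against at most 89.2. Dorsal midbrain 1 and 2 thus lay above the other 12 libraries for all of these genes, and dorsal midbrain 3 for Mki67 alone. The rest of the progenitor list was mixed. Vim was highest in the 3 dorsal midbrain libraries (584 to 609 RPKM, against at most 580). Slc1a3 was lowest in dorsal midbrain 1 and 2 (9.67 and 8.75 RPKM, against 10.1 or more in every other library). For Sox2, Nes, Hes1 and Fabp7 all 3 lay inside the range of the other 12 libraries. In such bulk tissue, fewer cells of a type and less RNA per cell cannot be told apart, and the part of cell composition in the receptor differences was not tested. By library, 32 of 36 receptor genes lay below their own median in dorsal midbrain 1 and in dorsal midbrain 2. Of all genes tested, 41.8% and 44.3% did so in these libraries. There were 29 in alar plate 3 (49.9% of all genes) and 3 each in forebrain 2 and 3 (50.1% and 54.0%). Between these came 25 in alar plate 1 (38.0%), 23 in ventral midbrain 1 (45.4%) and 22 in dorsal midbrain 3 (38.3%), among others. In 15 genes the lowest of all libraries was alar plate 3, and in 12 it was dorsal midbrain 1.

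**Figure D2:**
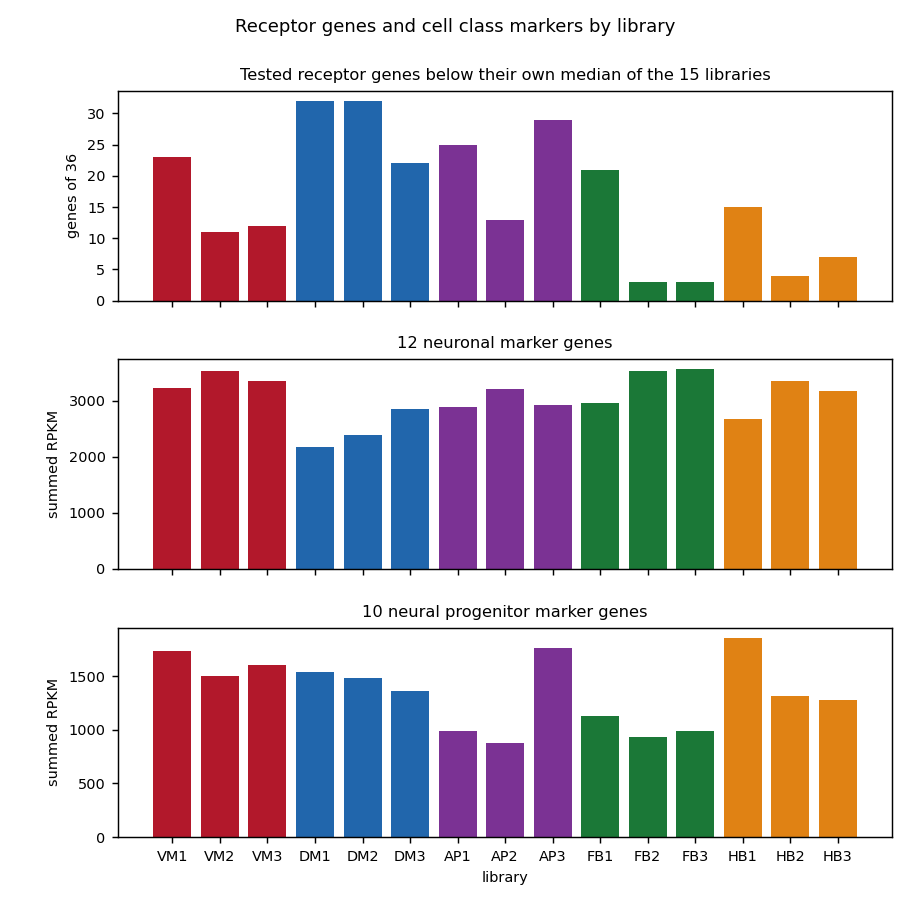
For each of the 15 libraries, the number of tested receptor genes (of 36) below their own median (top), the summed RPKM of 12 neuronal marker genes (middle) and of 10 neural progenitor marker genes (bottom). VM is ventral midbrain, DM dorsal midbrain, AP alar plate, FB forebrain and HB hindbrain. DM1 and DM2 have 32 genes below their median and the lowest neuronal sums, and FB2 and FB3 have 3 genes below.

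In the hindbrain, 8 of 36 receptor genes were higher than in the other regions and none was lower by limma (2 lower at an unadjusted p under 0.05), while 4.03% of all genes tested were higher and 2.27% lower (6.3% in either direction). Among the higher genes were Gria4, Grik3, Grin2d, Grm5, Grm7 and the GABA-A gene Gabrq, and the median difference of the receptor genes was 0.44, against -0.01 for all genes. For Gria4 and Grik3 all 3 hindbrain libraries lay above the other 12, which, with the call, held for 1.6% of all genes tested. The count was 3 without hindbrain 1, 2 without hindbrain 2 or 3 and 14 without dorsal midbrain 3, and 22 (21 higher and 1 lower) without the 3 libraries that stood apart. The call of Grin2d held whichever library was left out.

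In the ventral midbrain, where dopaminergic neurons are born, 3 receptor genes were higher than in the other regions, Gabra5, Grik1 and Grm2, and 2 were lower, Grm3 and Grm4. Higher genes made up 7.43% of all genes tested and lower ones 3.16%, 10.6% in all (3 of 36 and 2 of 36 receptor genes), so the number of receptor genes called was near the background. The median receptor gene differed by 0.14, against -0.02 for all genes. The count was 1 without ventral midbrain 1, 2 without ventral midbrain 2 or 3, 10 without dorsal midbrain 3, and 19 (12 higher and 7 lower) without the 3 libraries that stood apart. The call of Gabra5 held under every single omission.

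At an unadjusted p under 0.05, 14 receptor genes were higher in the forebrain and 0 lower, counts with no share of all genes at that threshold beside them. By limma at the adjusted threshold the forebrain had 2 higher receptor genes, Glra2 and Grm8, and none lower. Of all genes tested, 0.618% were higher and 2.3% lower at that adjusted threshold (2.92% in either direction). The median difference was 0.43, against -0.03 for all genes. Without forebrain 1, which lay apart from forebrain 2 and 3, 9 were called, without dorsal midbrain 3 there were 10, and leaving out alar plate 3 gave 4. A single gene was called (1) without ventral midbrain 1, 2 or 3, dorsal midbrain 2, forebrain 2 or 3, or hindbrain 1 or 3. There were 26, all higher, without the 3 libraries that stood apart, a count with no share of all genes under that setting beside it.

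The alar plate had 4 lower receptor genes, Gabra2, Grik3, Grin2d and Grm7, and none higher by limma (1 at an unadjusted p under 0.05), while 3.41% of all genes tested were lower and 1.24% higher (4.66% in either direction). The median difference was -0.39, against -0.01 for all genes. Alar plate 3 was lower than both alar plate 1 and 2 in 30 of the 36 genes and higher than both in 5, with a median difference of -0.68, against -0.02 over all genes. The count was 1 without ventral midbrain 2 or 3, forebrain 2, or hindbrain 1, 2 or 3, 2 without ventral midbrain 1, dorsal midbrain 1 or forebrain 3, and 10 without forebrain 1. It was 14 (5 higher and 9 lower) without the 3 libraries that stood apart, and the call of Grin2d held under every single omission.

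**Figure D3:**
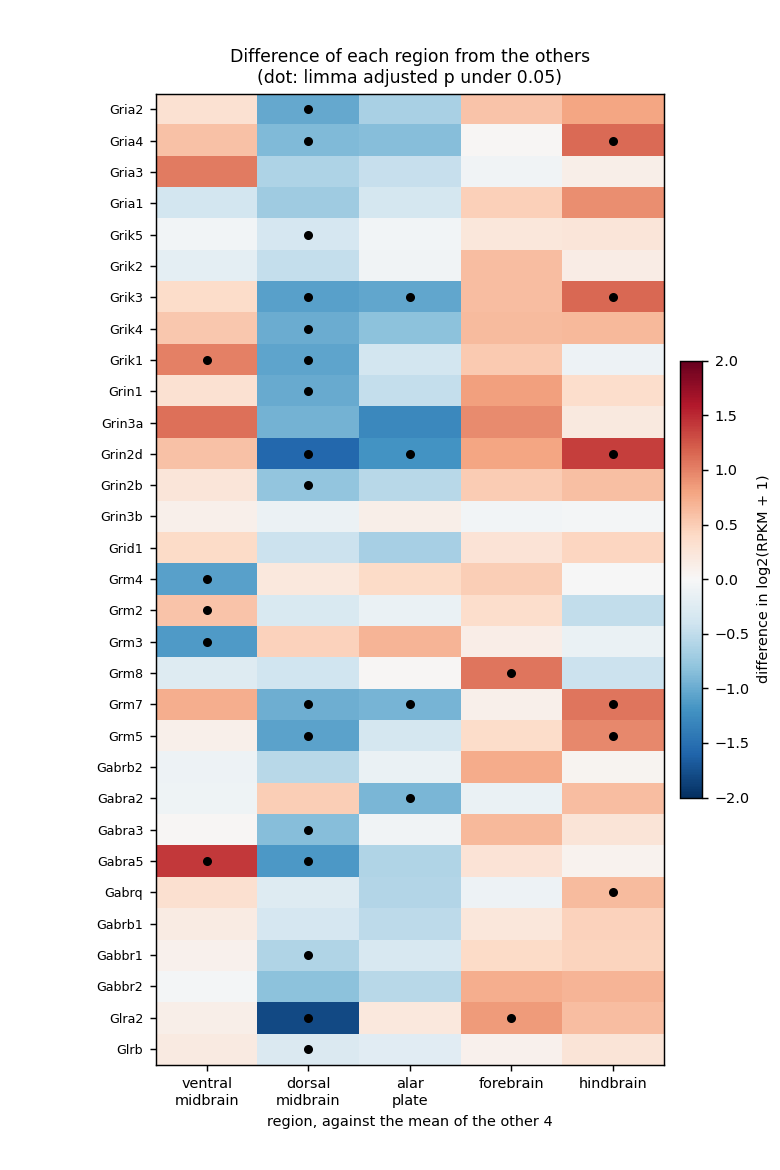
Difference of each region from the unweighted mean of the other 4 (columns) for 31 tested receptor genes (rows, by family) in log2(RPKM + 1); colours end at -2 and 2, red is higher in the region and blue lower, and a dot marks a limma adjusted p under 0.05. The dorsal midbrain column is mostly blue and has the most dots, and the hindbrain column is mostly red.

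The dorsal and ventral midbrain share their place along the axis from front to back and differ in the other, so they were also compared directly. Of 36 receptor genes, 14 were higher in the ventral midbrain, against 11.4% of all genes tested, and 2 were lower, Grm3 and Grm4, against 12.4% (23.9% differed in either direction). Among the higher genes were Gria3, Gria4, Grik1, Grik3, Grik4, Grin2d, Grin3a, Grm2, Grm5, Grm7, Gabra5, Glra2 and Glrb, and the median difference was 0.64, against -0.05 for all genes. The count of 16 was 10, 8 and 9 without ventral midbrain 1, 2 and 3, 7 without dorsal midbrain 1 or 2, and 31 (28 higher and 3 lower) without the 3 libraries that stood apart. Calls of Gabra5, Glra2, Grik1, Grik4, Grin2d, Grm3 and Grm7 held under every single omission.

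Among the AMPA receptor genes, Gria2 and Gria4 had the highest means. Gria2 encodes the subunit that, after RNA editing, makes the channel nearly impermeable to calcium. Gria2 stood at 6.41, 7.58 and 15.5 RPKM in dorsal midbrain, against 18.4, 20.9 and 21.4 in ventral midbrain, 16, 17.4 and 5.16 in alar plate, 19.2, 29.1 and 23.5 in forebrain and 28.4, 26 and 26 in hindbrain. Dorsal midbrain 1 and 2 were below all libraries except alar plate 3, and dorsal midbrain 3 lay inside the range of the alar plate. Its difference in the dorsal midbrain was -1.02 ± 0.29 (SE) on the log2(RPKM + 1) scale (limma adjusted p = 0.0183), and without dorsal midbrain 1 or 2 it missed the threshold, with an adjusted p of up to 0.146. Gria4, whose subunit is common in early and brainstem neurons, stood at 16.5, 16.7 and 17.2 RPKM in hindbrain, against 10.7, 13.4 and 12.499 in ventral midbrain, 3.55, 3.91 and 7.91 in dorsal midbrain, 7.14, 7.4 and 2.03 in alar plate and 4.87, 11.9 and 10.8 in forebrain. The 3 hindbrain values lay close together and above all others, and the ventral midbrain came next. The hindbrain difference was 1.13 ± 0.30 (SE) (adjusted p = 0.0455), and the dorsal midbrain difference was -0.88 (adjusted p = 0.0423). The hindbrain call of Gria4 was lost without ventral midbrain 1, 2 or 3, dorsal midbrain 1 or 2 or hindbrain 1, 2 or 3, with an adjusted p of up to 0.198. Its dorsal midbrain call was lost without ventral midbrain 1, 2 or 3, dorsal midbrain 1 or 2, alar plate 1 or 2, forebrain 2 or 3 or hindbrain 1, 2 or 3, with an adjusted p of up to 0.229. Without the 3 libraries that stood apart, Gria4 differed by 1.0 in the hindbrain (adjusted p = 2.86e-06) and by -1.40 in the dorsal midbrain (adjusted p = 2.56e-07).

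Gria3, named here after its values were seen, had the opposite order of ventral midbrain and hindbrain. It stood at 10.5, 11.4 and 12.2 RPKM in ventral midbrain, against 2.87, 2.6 and 7.53 in dorsal midbrain, 6.73, 6.23 and 1.79 in alar plate, 2.83, 8.47 and 7.22 in forebrain and 6.36, 7.31 and 5.76 in hindbrain. All 3 ventral midbrain libraries lay above the other 12, as did those of 4.89% of all genes tested, though the difference of 1.03 ± 0.33 (SE) against the other regions missed the threshold (adjusted p = 0.0691). Against the dorsal midbrain alone Gria3 was higher by 1.32 (adjusted p = 0.0376), a call lost without ventral midbrain 1, 2 or 3, dorsal midbrain 1 or 2 or hindbrain 2 or 3, with an adjusted p of up to 0.149. As a share of summed AMPA RPKM, Gria3 made up 23.5 ± 0.82% in the ventral midbrain (SD, n = 3), 18.1% in the dorsal midbrain, 17% in the alar plate, 12.4% in the forebrain and 10.6% in the hindbrain. Gria1 was not called in any of the comparisons, with region means of 11.1 ± 4.4 RPKM in the hindbrain and 4.08 ± 2.8 RPKM in the dorsal midbrain (SD, n = 3 each).

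Kainate receptor genes were led by Grik5, whose subunit forms channels only together with a partner such as Grik2. Grik5 stood at 34.7, 37.9 and 45.3 RPKM in dorsal midbrain, against 43.2, 47.4 and 47.4 in ventral midbrain, 48.7, 51.4 and 38.9 in alar plate, 51.9, 57.2 and 52.2 in forebrain and 50.9, 55.7 and 56.1 in hindbrain. The range over all libraries was narrow, and dorsal midbrain 1 and 2 were the lowest of all. Its dorsal midbrain difference was -0.34 ± 0.09 (SE) (adjusted p = 0.0146), lost without dorsal midbrain 1 or 2 (adjusted p up to 0.13). Grik2 stood at 12.6, 14.8 and 14 RPKM in forebrain, against 7.94, 8.87 and 8.65 in ventral midbrain, 5.93, 5.58 and 10.5 in dorsal midbrain, 12.2, 11.4 and 5.31 in alar plate and 10.9, 9.67 and 10.7 in hindbrain. All 3 forebrain libraries lay above the other 12, as for 0.778% of all genes tested, with alar plate 1 close behind, and the lowest were alar plate 3 and dorsal midbrain 1 and 2. Grik2 passed no test, with a forebrain difference of 0.61 ± 0.20 (SE) (adjusted p = 0.119).

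Grik3 followed the pattern of Gria4. It stood at 15.6, 18.2 and 16.9 RPKM in hindbrain, against 9.36, 12.3 and 10.6 in ventral midbrain, 2.23, 2.95 and 9.94 in dorsal midbrain, 4.29, 5.64 and 3.28 in alar plate and 13.6, 13.5 and 10.3 in forebrain. Hindbrain libraries lay above all others, dorsal midbrain 1 and 2 and alar plate 3 were the lowest, and dorsal midbrain 3 was well above its pair. The hindbrain difference was 1.14 ± 0.27 (SE) (adjusted p = 0.024), the dorsal midbrain difference -1.09 (adjusted p = 0.00979) and the alar plate difference -1.05 (adjusted p = 0.0443). Leaving out hindbrain 1, 2 or 3 ended the hindbrain call (adjusted p up to 0.135), leaving out dorsal midbrain 1 or 2 ended the dorsal midbrain call (up to 0.103), and the alar plate call was lost without ventral midbrain 1, 2 or 3, alar plate 1, 2 or 3, forebrain 2 or 3 or hindbrain 1, 2 or 3 (up to 0.173). Without the 3 libraries that stood apart, these differences were 1.25, -1.65 and -0.74.

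Grik1, given here after its values were seen because it was called in the ventral midbrain, stood at 4.95, 5.51 and 5.71 RPKM in ventral midbrain, against 0.643, 0.716 and 2.0 in dorsal midbrain, 2.15, 2.48 and 1.4 in alar plate, 1.95, 5.18 and 5.45 in forebrain and 1.74, 3.27 and 2.5 in hindbrain. Ventral midbrain levels were matched only by forebrain 2 and 3, and dorsal midbrain 1 and 2 were the lowest. The ventral midbrain difference was 1.0 ± 0.24 (SE) (adjusted p = 0.0153), lost without ventral midbrain 1, 2 or 3 (adjusted p up to 0.0934). Directly against the dorsal midbrain it was higher by 1.65 (adjusted p = 0.00243), and this call held under every single omission. Grik4, the other subunit that needs a partner, averaged 6.33 ± 0.56 RPKM in the ventral midbrain and 2.39 ± 1.8 RPKM in the dorsal midbrain (SD, n = 3 each), a difference of 1.23 ± 0.28 (SE) (adjusted p = 0.00848).

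All NMDA receptors need Grin1, and their other subunits set the timing and calcium entry of the channel. Grin1, which binds the co-agonist glycine, stood at 1.84, 2.09 and 5.76 RPKM in dorsal midbrain, against 5.58, 8.33 and 7.7 in ventral midbrain, 4.48, 5.83 and 2.91 in alar plate, 5.22, 13.4 and 13.1 in forebrain and 5.01, 9.15 and 8.45 in hindbrain. Dorsal midbrain 1 and 2 were the lowest of all libraries, and forebrain 1 was well below forebrain 2 and 3. The dorsal midbrain difference was -1.01 ± 0.30 (SE) (adjusted p = 0.0226), lost without dorsal midbrain 1 or 2 (up to 0.166). Grin3a, whose subunit lowers calcium entry and is most abundant early in life, stood at 5.89, 7.99 and 7.87 RPKM in ventral midbrain, against 0.827, 1.06 and 3.84 in dorsal midbrain, 1.83, 2.49 and 0.0567 in alar plate, 2.04, 10.03 and 11.9 in forebrain and 2.76, 4.56 and 4.89 in hindbrain. Forebrain 2 and 3 were the highest and alar plate 3 the lowest, and the groups overlapped. Grin3a was not called against the mean of the other regions in any region (ventral midbrain difference 1.09 ± 0.44 (SE), adjusted p = 0.147). Against the dorsal midbrain it was higher in the ventral midbrain by 1.64 (adjusted p = 0.048), lost without ventral midbrain 1, 2 or 3, dorsal midbrain 1 or 2, alar plate 1, forebrain 2 or hindbrain 1, 2 or 3 (up to 0.182).

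Grin2d, named after its values were seen, had the smallest adjusted p of all receptor genes in the F test (9.95e-05, limma). Its subunit gives slowly closing NMDA channels typical of the embryonic brainstem and diencephalon. It stood at 5.28, 10.5 and 10.5 RPKM in hindbrain, against 4.72, 5.71 and 4.71 in ventral midbrain, 0.636, 0.455 and 1.57 in dorsal midbrain, 1.47, 1.65 and 0.741 in alar plate and 4.56, 6.53 and 6.47 in forebrain. Hindbrain 2 and 3 were the highest, hindbrain 1 lay within the range of the ventral midbrain and forebrain, and all dorsal midbrain and alar plate libraries were below every library of the other 3 regions. The hindbrain difference was 1.38 ± 0.21 (SE) (adjusted p = 0.00135), the dorsal midbrain difference -1.57 ± 0.21 (SE) (adjusted p = 0.000503) and the alar plate difference -1.19 ± 0.21 (SE) (adjusted p = 0.00656). These 3 calls held under every single omission, with differences of 1.24 to 1.68, -1.81 to -1.41 and -1.31 to -1.01. Of the summed NMDA RPKM, Grin2d took 34.8 ± 2.1% in the hindbrain (SD, n = 3), against 21.7% in the ventral midbrain, 10.4% in the dorsal midbrain, 13.4% in the alar plate and 22.2% in the forebrain. Grin2b, the other main embryonic glutamate-binding subunit, averaged 0.763 ± 0.53 RPKM in the dorsal midbrain and 2.78 ± 0.93 RPKM in the hindbrain (SD, n = 3 each), was lower in the dorsal midbrain (difference -0.79, adjusted p = 0.0346, lost without ventral midbrain 2 or 3, dorsal midbrain 1 or 2, forebrain 2 or hindbrain 2 or 3, up to 0.199), and the adult-type Grin2a and Grin2c failed the filter.

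**Figure D4:**
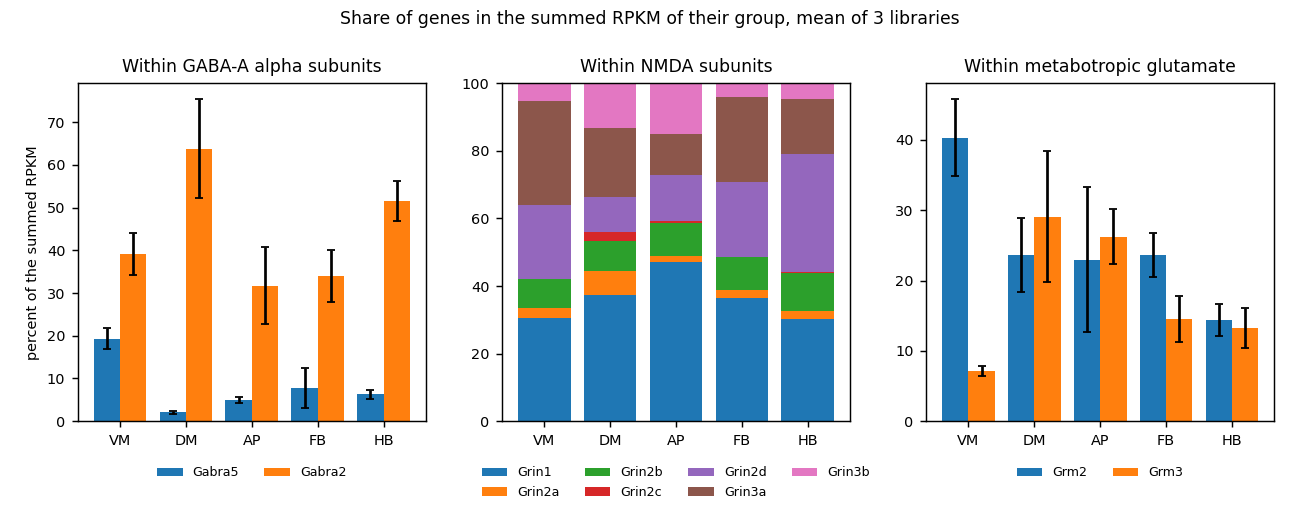
Share of genes in summed RPKM, as means of 3 libraries per region: Gabra5 and Gabra2 among GABA-A alpha subunits (left, bars with SD), all NMDA subunits (middle, stacked) and Grm2 and Grm3 among metabotropic glutamate receptors (right, bars with SD); VM is ventral midbrain, DM dorsal midbrain, AP alar plate, FB forebrain and HB hindbrain. Gabra5 takes 19.3% in VM and 2.10% in DM, Grin2d takes 34.8% in HB, and Grm2 takes 40.3% in VM.

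Grid1, a delta receptor gene, stood at 2.39, 7.78 and 7.84 RPKM in forebrain, against 5.25, 6.21 and 5.93 in ventral midbrain, 3.04, 3.61 and 3.41 in dorsal midbrain, 3.72, 4.46 and 1.16 in alar plate and 5.15, 6.53 and 6.32 in hindbrain. Forebrain 2 and 3 were the highest and alar plate 3 the lowest, with forebrain 1 near the bottom. Grid1 passed no test (F test adjusted p = 0.162).

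Metabotropic glutamate receptor genes were called in the F test without exception among the 7 tested, yet in different regions. Grm5 encodes a group I receptor, which couples to phospholipase C. Grm5, named after its values were seen, averaged 3.09 ± 1.1 RPKM in the hindbrain and 0.290 ± 0.19 RPKM in the dorsal midbrain (SD, n = 3 each), with differences of 0.97 (adjusted p = 0.0211) and -1.08 (adjusted p = 0.00439) from the other regions. The hindbrain call of Grm5 was lost without hindbrain 2 or 3 (up to 0.161).

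Grm2 and Grm3 encode the group II receptors, which inhibit adenylyl cyclase, and in the ventral midbrain Grm2 was higher and Grm3 lower than elsewhere. Grm2 stood at 5.83, 6.98 and 5.62 RPKM in ventral midbrain, against 2.85, 3.1 and 4.38 in dorsal midbrain, 3.62, 3.8 and 4.11 in alar plate, 5.83, 5.13 and 5.03 in forebrain and 1.61, 3.79 and 3.96 in hindbrain. Ventral midbrain and forebrain libraries overlapped at the top, and hindbrain 1 was the lowest. The ventral midbrain difference was 0.57 ± 0.17 (SE) (adjusted p = 0.0451), lost without ventral midbrain 1, 2 or 3, dorsal midbrain 1 or 2, alar plate 1 or 2 or forebrain 2 or 3 (up to 0.236). Grm3 stood at 0.823, 1.22 and 1.28 RPKM in ventral midbrain, against 4.99, 4.91 and 2.72 in dorsal midbrain, 5.49, 7.05 and 2.58 in alar plate, 3.86, 3.42 and 2.58 in forebrain and 1.91, 3.85 and 2.48 in hindbrain. All ventral midbrain libraries lay below the other 12, and alar plate 1 and 2 and dorsal midbrain 1 and 2 were the 4 highest. The difference was -1.14 ± 0.23 (SE) (adjusted p = 0.00518), lost without ventral midbrain 1 (adjusted p = 0.0506), and -1.28 against the dorsal midbrain alone (adjusted p = 0.00769). A call with all 3 ventral midbrain libraries below the other 12 was found for 1.7% of all genes tested and for 2 of 36 receptor genes, Grm3 and Grm4. Of the summed metabotropic RPKM, Grm2 took 40.3 ± 5.5% and Grm3 7.14 ± 0.72% in the ventral midbrain, against 23.6 ± 5.2% and 29.1 ± 9.3% in the dorsal midbrain (SD, n = 3 each).

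The group III genes Grm4, Grm7 and Grm8 encode presynaptic receptors that also inhibit adenylyl cyclase. Grm4 stood at 1.44, 1.89 and 1.96 RPKM in ventral midbrain, against 4.97, 4.56 and 4.42 in dorsal midbrain, 6.85, 8.81 and 2.13 in alar plate, 5.16, 6.33 and 5.28 in forebrain and 3.06, 4.75 and 4.4 in hindbrain. Ventral midbrain libraries were the 3 lowest, with alar plate 3 just above them and alar plate 1 and 2 the highest. The difference was -1.08 ± 0.25 (SE) (adjusted p = 0.0117), lost without ventral midbrain 1, 2 or 3 (up to 0.0827), and it was -1.23 without the 3 libraries that stood apart (adjusted p = 2.12e-05). Grm8 stood at 4.71, 4.14 and 2.86 RPKM in forebrain, against 1.17, 1.51 and 1.25 in ventral midbrain, 1.03, 0.734 and 1.77 in dorsal midbrain, 1.9, 1.77 and 1.42 in alar plate and 0.679, 1.38 and 1.29 in hindbrain. All forebrain libraries lay above the other 12, a pattern that with a call held for 0.226% of all genes tested, and forebrain 1, closest to dorsal midbrain 3 in its whole profile, was the highest of them. The forebrain difference was 1.08 ± 0.16 (SE) (adjusted p = 0.00432), which held under every single omission (0.96 to 1.24). Grm7, named after its values were seen, averaged 3.42 ± 0.47 RPKM in the hindbrain and 2.69 ± 0.70 in the ventral midbrain, against 1.79 ± 1.2 in the forebrain, 0.462 ± 0.15 in the alar plate and 0.441 ± 0.34 in the dorsal midbrain (SD, n = 3 each). Its hindbrain difference was 1.07 (adjusted p = 0.015), lost without hindbrain 1, 2 or 3 (up to 0.116).

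**Figure D5:**
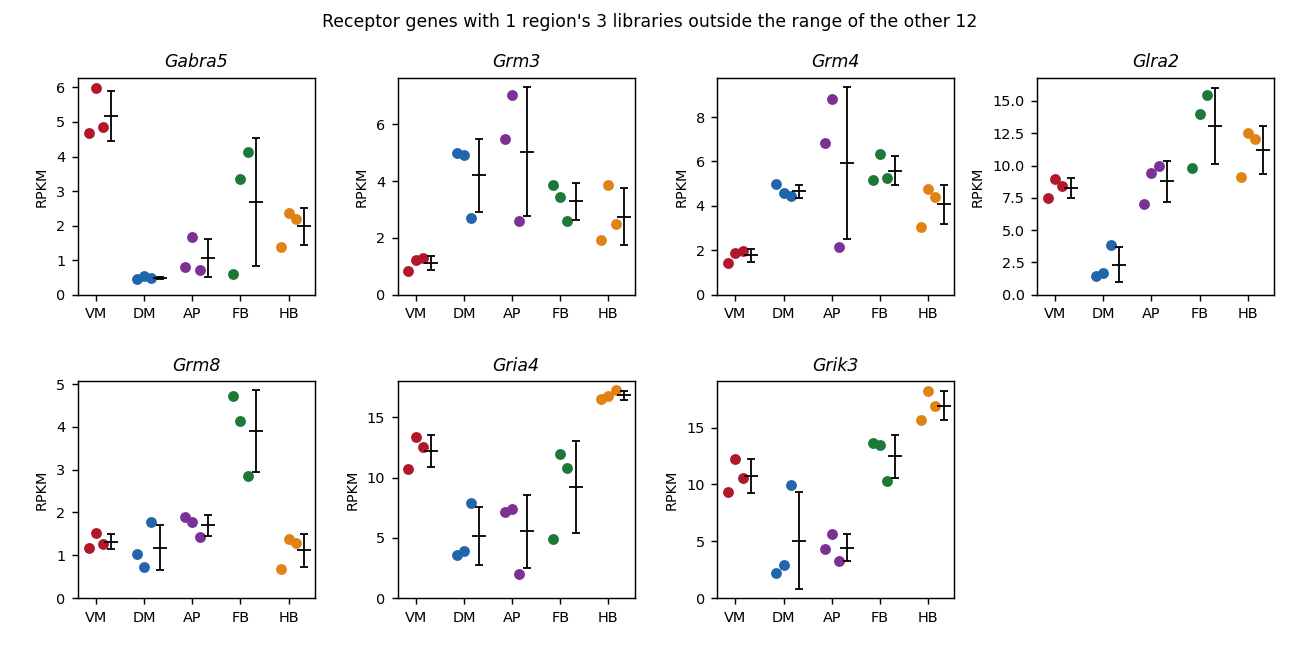
RPKM of 7 receptor genes in the 15 libraries, 1 point per library, with the mean and SD of each region (bar, n = 3); VM is ventral midbrain, DM dorsal midbrain, AP alar plate, FB forebrain and HB hindbrain. In each panel 1 region's 3 points lie beyond the other 12: Gabra5 above in VM, Grm3 and Grm4 below in VM, Glra2 below in DM, Grm8 above in FB, and Gria4 and Grik3 above in HB.

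Among the GABA-A receptor genes, the alpha subunit gene Gabra5 was higher in the ventral midbrain and lower in the dorsal midbrain. Its subunit forms receptors that sit mostly outside synapses and carry tonic inhibition in the adult hippocampus. Gabra5 stood at 4.68, 6.0 and 4.86 RPKM in ventral midbrain, against 0.467, 0.529 and 0.468 in dorsal midbrain, 0.794, 1.68 and 0.705 in alar plate, 0.587, 3.34 and 4.13 in forebrain and 1.37, 2.37 and 2.19 in hindbrain. Ventral midbrain libraries lay above all others, which with a call held for 4.12% of all genes tested, dorsal midbrain libraries below all others (2.16%), and forebrain 1 was far below forebrain 2 and 3. The ventral midbrain difference was 1.41 ± 0.27 (SE) (adjusted p = 0.00398), within 1.28 to 1.49 under single omissions, all called. In the dorsal midbrain the difference was -1.15 ± 0.27 (SE) (adjusted p = 0.00768), lost without dorsal midbrain 1 (adjusted p = 0.054). The direct difference of the ventral from the dorsal midbrain was 2.05 ± 0.34 (SE) (adjusted p = 0.00135). Of the summed alpha subunit RPKM, Gabra5 made up 19.3 ± 2.5% in the ventral midbrain, against 2.1 ± 0.33% in the dorsal midbrain, 4.96 ± 0.78% in the alar plate, 7.88 ± 4.7% in the forebrain and 6.29 ± 1.1% in the hindbrain (SD, n = 3 each).

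Gabra2, the most abundant alpha subunit gene, stood at 6.51, 11.1 and 3.18 RPKM in alar plate, against 8.72, 9.996 and 13.1 in ventral midbrain, 13.9, 17 and 13.6 in dorsal midbrain, 8.86, 10.8 and 11 in forebrain and 13.9, 15 and 19.2 in hindbrain. Alar plate 3 was the lowest library and hindbrain 3 the highest, and alar plate 2 lay inside the range of the other regions. The alar plate difference was -0.91 ± 0.23 (SE) (adjusted p = 0.0407), lost without ventral midbrain 1, 2 or 3, dorsal midbrain 1, 2 or 3, alar plate 3, forebrain 2 or 3 or hindbrain 1, 2 or 3 (up to 0.156), and -0.55 without the 3 libraries that stood apart (adjusted p = 0.0717). Gabra2 was not among the genes lower in the dorsal midbrain, where it took 63.8 ± 12% of the alpha subunit RPKM, and its difference there was 0.50 ± 0.23 (SE) (adjusted p = 0.115). Gabra3 averaged 4.65 ± 2.0 RPKM in the dorsal midbrain and 11.9 ± 3.9 in the forebrain (SD, n = 3 each), and was lower in the dorsal midbrain (difference -0.86, adjusted p = 0.0113), lost without dorsal midbrain 1 or 2 (up to 0.108).

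Gabrb2, a beta subunit gene, stood at 16.6, 25.7 and 21.4 RPKM in forebrain, against 11.4, 13.6 and 13.3 in ventral midbrain, 7.43, 7.91 and 15.3 in dorsal midbrain, 18.9, 18.7 and 5.39 in alar plate and 13.3, 14.8 and 14.1 in hindbrain. Forebrain 2 and 3 were the highest and alar plate 3 the lowest, and Gabrb2 passed no test (F test adjusted p = 0.221). Gabrq, the theta subunit gene named after its values were seen, averaged 2.43 ± 0.24 RPKM in the hindbrain and was higher there by 0.63 (adjusted p = 0.033), lost without ventral midbrain 1 or 2, dorsal midbrain 1 or 2, forebrain 2 or hindbrain 1, 2 or 3 (up to 0.181).

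Both GABA-B receptor genes, whose products pair into 1 obligate dimer, were present everywhere. Gabbr1, the GABA-binding subunit, stood at 43.6, 49.98 and 78.2 RPKM in dorsal midbrain, against 75.3, 85.4 and 84.7 in ventral midbrain, 77.9, 89.5 and 39.2 in alar plate, 79.5, 106 and 107 in forebrain and 90.1, 109 and 102 in hindbrain. Alar plate 3 and dorsal midbrain 1 and 2 were the lowest, and dorsal midbrain 3 was within the range of the ventral midbrain. The dorsal midbrain difference was -0.60 ± 0.21 (SE) (adjusted p = 0.0462), lost without ventral midbrain 1, 2 or 3, dorsal midbrain 1 or 2, alar plate 1 or 2, forebrain 2 or 3 or hindbrain 1, 2 or 3 (up to 0.276). Gabbr2, the G protein coupling subunit, stood at 1.35, 1.85 and 4.33 RPKM in dorsal midbrain, against 3.22, 4.89 and 4.35 in ventral midbrain, 4.64, 6.0 and 0.429 in alar plate, 4.92, 8.18 and 7.78 in forebrain and 4.27, 8.77 and 7.44 in hindbrain. Alar plate 3 was the lowest by a wide margin and hindbrain 2 the highest, and Gabbr2 passed no test (F test adjusted p = 0.155). Gabbr1 was the more abundant of the pair in every library.

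Glycine receptor genes were represented by the alpha subunit Glra2, the embryonic form, and the beta subunit Glrb, which ties the receptor to the scaffold protein gephyrin. Glra2 stood at 1.46, 1.67 and 3.88 RPKM in dorsal midbrain, against 7.46, 8.93 and 8.38 in ventral midbrain, 6.98, 9.4 and 9.96 in alar plate, 9.79, 14 and 15.5 in forebrain and 9.11, 12.51 and 12 in hindbrain. All dorsal midbrain libraries lay below the other 12, dorsal midbrain 1 and 2 further than dorsal midbrain 3, and forebrain 3 was the highest. The dorsal midbrain difference was -1.80 ± 0.19 (SE) (adjusted p = 9.7e-05), the smallest adjusted p of any receptor gene in that comparison, and it held under every single omission (-2.11 to -1.62). The forebrain difference was 0.86 ± 0.19 (SE) (adjusted p = 0.0325), lost without ventral midbrain 1, 2 or 3, dorsal midbrain 2, forebrain 2 or 3 or hindbrain 1 or 3 (up to 0.188). Glrb stood at 2.8, 2.98 and 2.55 RPKM in dorsal midbrain, against 4.02, 4.45 and 3.22 in ventral midbrain, 2.92, 2.68 and 3.07 in alar plate, 3.1, 3.69 and 4.11 in forebrain and 3.94, 4.2 and 4.07 in hindbrain. Its levels spanned less than those of Glra2, with all dorsal midbrain and most alar plate libraries at the low end. The dorsal midbrain difference was -0.28 ± 0.09 (SE) (adjusted p = 0.0352), lost without ventral midbrain 1 or 2, dorsal midbrain 1, 2 or 3, forebrain 2 or 3 or hindbrain 2 or 3 (up to 0.128). Glra2 made up 88.6% to 98.2% of the summed alpha subunit RPKM of glycine receptors in the 5 regions.

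Likeness between receptor genes was described by Pearson r over the 15 libraries on the log2(RPKM + 1) scale. These points share region, dissection and depth, and no p is given. Of 630 pairs of tested receptor genes 560 had an r above 0, and the median r was 0.60. No r over pairs of other genes is given, so these values cannot be set against a background. The closest pair was Gabbr1 and Gabbr2 (r of 0.977). Gabra5 was most like Grik1 (0.923). Grm3 was the 1 gene whose median r with the others was below 0 (-0.28), and its nearest gene was Grm4 (0.889). In the RefSeq annotation, 20 of the 52 genes lie next to another receptor gene, with at most 1 gene between, in 7 clusters.

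Genes that make, package, clear and anchor the transmitters were read in the same libraries, from lists chosen with earlier results of these data known. Of 8 tested genes of transmitter synthesis and vesicle loading, 1 was higher and 3 lower in the ventral midbrain, where 7.43% of all genes tested were higher and 3.16% lower. Gad1, a GABA-synthesising enzyme, stood at 2.06, 4.23 and 4.74 RPKM in ventral midbrain, against 12.3, 14.7 and 17.9 in dorsal midbrain, 23.2, 22.8 and 11 in alar plate, 10.7, 26.2 and 20.8 in forebrain and 31.6, 28.8 and 24.8 in hindbrain. Ventral midbrain libraries lay below all others. The difference of Gad1 was -2.17 ± 0.27 (SE) (adjusted p = 0.000131). Slc32a1, the vesicular transporter of GABA and glycine, differed by -1.78 (adjusted p = 0.00374) and Gad2, the other GABA-synthesising enzyme, by -1.49 (adjusted p = 0.00844, lost without ventral midbrain 1, 0.0727). In the hindbrain 3 of the 8 genes were higher and 1 lower (4.03% and 2.27% of all genes tested). Slc17a8, the vesicular glutamate transporter VGLUT3, stood at 24, 18.8 and 26.3 RPKM in hindbrain, against 9.38, 13.2 and 12.1 in ventral midbrain, 0.0759, 0.0896 and 0.0761 in dorsal midbrain, 0.161, 0.141 and 1.72 in alar plate and 1.61, 1.01 and 1.16 in forebrain. Hindbrain libraries were the highest and ventral midbrain libraries next. The hindbrain difference of Slc17a8 was 3.19 ± 0.22 (SE) (adjusted p = 1.45e-06). The hindbrain count of 4 was 2 without hindbrain 1, 2 or 3 and 7 without dorsal midbrain 3.

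The list of transmitter uptake genes also held the enzyme genes Abat and Glul. Of its 10 tested genes, 6 were lower and 1 higher in the dorsal midbrain, with a median difference of -0.89. Over all genes tested, 13.8% were lower and 18.2% higher, with a median of 0.05. The count of 7 was 2 without dorsal midbrain 1 and 4 without dorsal midbrain 2. The GABA transporter gene Slc6a11 differed by -1.76 there (adjusted p = 0.00211). The higher gene was Slc6a13, a GABA transporter known from meninges, with a difference of 1.14 (adjusted p = 0.00712, lost without dorsal midbrain 1 or 2, up to 0.0595). The meningeal marker sums given above were also high in the dorsal midbrain, and their part in this difference was not tested. In the ventral midbrain 2 genes of this list were higher (7.43% of all genes, and 1 gene without ventral midbrain 3), led by the glutamate transporter gene Slc1a3 at 1.85 (limma adjusted p = 5.34e-05). Slc1a3 stood at 71.3, 72.5 and 80.0 RPKM in ventral midbrain and 81.3, 62.6 and 60.8 in hindbrain, against 8.75 to 23.0 in the other regions. Hindbrain 1 was the highest library, so a high level was not particular to the ventral midbrain. Slc1a3 is also 1 of the 10 progenitor markers. These summed to 1730, 1499 and 1603 RPKM in the ventral midbrain, against 873 to 1858 in the other libraries, and their part in this difference was not tested. In the hindbrain 4 were higher (4.03% of all genes), 2 without dorsal midbrain 2 or hindbrain 1 and 1 without hindbrain 2 or 3.

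The chloride exporter gene Slc12a5 (KCC2), which lowers internal chloride as neurons mature, stood at 2.16, 2.53 and 5.4 RPKM in dorsal midbrain, against 9.33, 12.7 and 11.6 in ventral midbrain, 10.3, 12 and 3.62 in alar plate, 8.71, 21.6 and 24.6 in forebrain and 19.3, 29.4 and 27.9 in hindbrain. Dorsal midbrain 1 and 2 were the lowest, followed by alar plate 3. Its dorsal midbrain difference was -1.85 ± 0.33 (SE) (adjusted p = 0.00242), which held under every single omission, while the chloride importer gene Slc12a2, the other gene of that list, was not called there.

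Of the postsynaptic genes called in the dorsal midbrain, most were lower. Of 18 glutamate receptor auxiliary and trafficking genes 8 were lower and 1 higher there, against 13.8% lower and 18.2% higher over all genes tested, and the count of 9 was 1 without dorsal midbrain 1 or 2. The AMPA receptor auxiliary genes Cacng3 and Shisa9 differed by -1.46 and -1.21, both lost without dorsal midbrain 1 or 2 (adjusted p up to 0.094 and 0.105). Of 16 glutamatergic scaffold genes 5 were lower and 3 higher, the higher ones a share near the 18.2% of all genes, a count that was 2 without dorsal midbrain 1, 3 without dorsal midbrain 2 and 13 without alar plate 3. Among these, Nlgn3, a neuroligin, differed by -0.79 and Dlgap1 by -0.70, both lost without dorsal midbrain 1 or 2 (up to 0.179 and 0.111), and Dlgap2 by 0.68, which held (up to 0.0121). Of 8 inhibitory scaffold genes 4 were lower (13.8% of all genes), among them Lhfpl4, Gabarapl1 and Gphn, with differences of -0.51, -0.42 and -0.39. Gphn encodes gephyrin, the scaffold that holds glycine and GABA-A receptors. That count was 0 without dorsal midbrain 1 or 2 and 2 without ventral midbrain 1 or 2, forebrain 2 or 3, or hindbrain 2 or 3. Outside the dorsal midbrain, the AMPA receptor auxiliary gene Gsg1l was the 1 auxiliary gene called in the hindbrain, with a difference of -1.41 ± 0.20 (SE) (adjusted p = 0.000822), which held under every single omission. That count of 1 was 5 without dorsal midbrain 3 or alar plate 3, 4 without forebrain 1, 2 without hindbrain 1 and 12 without the 3 libraries that stood apart.

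Secreted organisers such as cerebellins and C1q-like proteins bridge receptors to the presynaptic side. The list of organisers held their genes and also those of the neuronal pentraxins and their receptor. Of its 9 tested genes, 4 were higher and 1 lower in the ventral midbrain (7.43% and 3.16% of all genes). In the dorsal midbrain 5 were lower (13.8% of all genes). The ventral midbrain count of 5 was 3 without ventral midbrain 1 or 3 and 2 without ventral midbrain 2, and the dorsal midbrain count of 5 was 2 without dorsal midbrain 1 or 2. Cbln1, a ligand of the delta receptors, stood at 5.03, 5.21 and 11 RPKM in alar plate, against 51.6, 68 and 73.9 in ventral midbrain, 15.5, 17.4 and 14.8 in dorsal midbrain, 8.82, 24.5 and 34.8 in forebrain and 72.7, 57.7 and 58.6 in hindbrain. The 3 alar plate libraries and forebrain 1 were the lowest. Its alar plate difference was -2.18 ± 0.30 (SE) (adjusted p = 0.00156). C1ql1 stood at 1.03, 0.909 and 0.965 RPKM in dorsal midbrain, against 35.3, 39.2 and 28.8 in ventral midbrain, 1.96, 1.19 and 2.18 in alar plate, 2.95, 40.7 and 58.7 in forebrain and 5.93, 10.7 and 13.8 in hindbrain. All dorsal midbrain and alar plate libraries were at 2.18 RPKM or less, and forebrain 1 was far below forebrain 2 and 3. Its dorsal midbrain difference was -2.63 ± 0.57 (SE) (adjusted p = 0.0053). Cbln4 differed by 1.78 in the ventral midbrain (adjusted p = 5.34e-05) and C1ql3 by 2.27 in the hindbrain (adjusted p = 0.00109). These 4 calls held under every single omission.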

How the data were processed

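RNA from 15 samples of 5 dissected brain regions, 3 samples each, was sequenced, and the deposited table gives 1 RPKM value per gene and sample, computed by the authors. Bowtie and the genome build mm9 are named, per the submitters' processing notes; the annotation, the way reads were counted, the use of strand and any filters were not given in the sources used here. Without known strand, reads of overlapping or antisense genes cannot be told apart.

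Receptor genes were taken by symbol, and both they and the lists of pathway and marker genes were chosen with earlier results of these data known. The 13745 genes that reached 1 RPKM in 3 or more libraries entered 1 limma fit (lmFit and eBayes with a variance trend, R 4.3.3, limma 3.58.1) on log2(RPKM + 1) with all 5 regions, so differences of low genes are understated. Tests were two-sided with Benjamini-Hochberg adjustment over all genes within each of 7 comparisons, at 0.05. The fit shares 1 estimate of spread over regions. Values of all libraries are printed for genes called in a region whose 3 libraries all lay beyond the other 12, and for the 2 genes (4 for GABA-A) with the highest mean per family; from each pathway list up to 4 called genes with the largest differences are named, and other named genes were chosen after their values were seen.

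Relative depth came from RPKM steps: of 16612 genes above 0 in at least 10 libraries, 16541 (99.6%) gave whole reads in every library, within 0.02 to 0.15 reads. Results of some genes are not reported here. The code was tested on simulated data. Alternatives were a pseudocount of 0.1 or 0.5, no filter, a filter at 5 RPKM, median-ratio or quantile scaling, no variance trend, array quality weights, a block by replicate number or by number in the title, the 2 midbrain regions alone, and each library left out. Promoters came from a RefSeq table of build GRCm38.p6, which differs from mm9, so no other coordinates are given. Tables were handled in Python 3.11.15 with pandas 2.3.3 and numpy 2.4.6, and figures drawn with matplotlib 3.10.9.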

Additional observations from a re-analysis of the deposited data

How the results depend on the processing

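Counts of called receptor genes depended on the libraries more than on scaling. Leaving out each library in turn, they ranged from 14 to 33 across the 5 regions, 1 to 10 in the ventral midbrain, 3 to 30 in the dorsal midbrain, 1 to 10 in the alar plate, 1 to 10 in the forebrain, 2 to 14 in the hindbrain, and 7 to 23 for ventral against dorsal midbrain. A filter at 5 RPKM, which tests 24 receptor genes, left 17 across the regions, 2 in the ventral midbrain, 2 in the alar plate, 1 in the forebrain, 2 in the hindbrain and 10 for ventral against dorsal midbrain. Array quality weights gave 19 in the ventral midbrain, 34 in the dorsal midbrain, 16 in the alar plate, 25 in the forebrain, 24 in the hindbrain and 35 for ventral against dorsal midbrain. Without dorsal midbrain 3, alar plate 3 and forebrain 1 (chosen after seeing the data) these counts were 19, 31, 14, 26, 22 and 31. The shares of all genes called under each alternative are not given, so a larger count is not by itself a trait of the receptor genes. A pseudocount of 0.1 gave 2 in the alar plate and 5 in the hindbrain; no filter gave 1 and quantile scaling 2 in the alar plate. The causes were not tested. No call of a receptor gene changed direction under any of these settings. Outside the F test there were 54 calls of a receptor gene, 16 of them in ventral against dorsal midbrain. Of the 54 calls, 15 held under all settings, 7 of them in ventral against dorsal midbrain.

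With the replicate number as a block, the counts were 28 across regions, 6 in the ventral midbrain, 17 in the dorsal midbrain, 2 in the alar plate, 3 in the forebrain, 7 in the hindbrain and 16 for ventral against dorsal midbrain; a block by the number in the title gave 2 in the alar plate. The replicate numbers stand in the sample titles after the letters of the region and follow the order of deposit within each region. No label says that same-numbered libraries belong together, so they were not used to pair samples. Over 30 pairs of same-numbered libraries, r of their deviations ranged from -0.175 to 0.405, and 18 were over 0.1. Among ventral midbrain, forebrain and hindbrain all were, at 0.234 to 0.382. With these 3 regions, the dorsal midbrain had r of 0.274 to 0.405 for numbers 1 and 3 and -0.163 to 0.0332 for number 2. What same-numbered libraries share was not tested, and the main fit holds no term for it. Of the receptor gene calls named, the block ended those of Gria4 and Gabrq in the hindbrain, Gria4 and Gabbr1 in the dorsal midbrain, Grik3 and Gabra2 in the alar plate, and Gria3 and Gria4 in ventral against dorsal midbrain. It added calls of Grm7 in the ventral midbrain, Gabra3 in the forebrain, Glra2 in the hindbrain, and Gabra3 and Grin1 in ventral against dorsal midbrain.

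With 3 libraries a region, of which 3 of 15 stood apart, the spread between libraries limits the differences; whether it is biological cannot be told apart from dissection. Some tested genes also rest on few reads, such as Gabra5 with 15 to 18 in the dorsal midbrain and Gabrb1 with 2 in alar plate 3.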

Other observations

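Among receptor genes that failed the filter on low values, 4 were called in at least 1 comparison when no filter was applied, Glra1, Gabrg1, Grin2c and Gabre. The share of all low genes called in this way is not given, so this count cannot be set against a background. Glra1, the adult-type alpha subunit gene of the glycine receptor, had 7, 38 and 32 reads in the hindbrain libraries, against at most 3 in any other library. Its hindbrain difference was 1.12 ± 0.16 (SE) on the log2(RPKM + 1) scale (limma adjusted p = 0.00137), and hindbrain 1 was well below hindbrain 2 and 3. Gabrg1, a gamma subunit gene of the GABA-A receptor, had 41, 55 and 64 reads in the ventral midbrain libraries, against 14 to 34 in the others. Its ventral midbrain difference was 0.55 ± 0.07 (SE; adjusted p = 0.000395). All 3 ventral midbrain libraries lay above the other 12. Grin2c, an NMDA receptor subunit gene, had 16, 7 and 5 reads in the dorsal midbrain libraries, against 0 to 9 in the others, with a dorsal midbrain difference of 0.15 ± 0.04 (SE; adjusted p = 0.0324). Gabre, the epsilon subunit gene of the GABA-A receptor, had 23, 16 and 10 reads in the hindbrain libraries, against 2 to 15 in the others. It was called in the F test across regions (adjusted p = 0.049), and its hindbrain difference of 0.32 missed the threshold (adjusted p = 0.0504). All 4 genes rest on few reads.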
